A study of Mus musculus with 12 samples.

Results

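Atf4, Trib3, Ddit3, Phgdh, Psat1, Psph, Shmt2, Mthfd2 and Asns were followed across 12 RNA-seq libraries of mouse lung cancer samples. These 9 genes of the integrated stress response and of serine, folate and asparagine synthesis were taken by symbol from the 19212 genes of the deposited table, and all 9 were found and passed the filter on low counts in every comparison. They had been chosen by their role and with their counts in these libraries, in all 3 contrasts with a control, already known. Their own values are therefore a description, and counts of calls among them stand beside the same share over all genes and support nothing.

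The tumour model used LLC cells, a mouse Lewis lung carcinoma line grown in 1640 medium with 10% fetal bovine serum before it was placed in mice. There were 4 groups of 3 libraries, all labelled lung cancer. NC came from LLC cells given a negative control lentivirus (genotype WT), and OTUB1_KD from LLC cells given a lentivirus against Otub1 (genotype OTUB1 knockdown). Blank came from mice treated with physiological saline and SFD@M from mice treated with SFD@M, both of genotype WT. The Blank titles also hold codes that start with KD, but their wording and saline label place them here. Mouse strain, age, dose, the time of sampling, the short hairpin sequence, and whether the Blank and SFD@M samples carried a virus were not stated in the labels.

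The integrated stress response starts when kinases that sense amino acid shortage, misfolded protein in the endoplasmic reticulum, haem shortage or double-stranded RNA phosphorylate the translation factor eIF2. General protein synthesis then drops while the transcription factor ATF4, whose messenger carries short upstream reading frames, is translated more. ATF4 pairs with C/EBP family proteins and switches on genes for amino acid uptake, amino acid synthesis and tRNA charging, among them the enzymes that make serine, feed its carbon into mitochondrial folate metabolism, and make asparagine. These enzymes are often abundant in tumour cells that divide fast.

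Libraries held 16062806 to 18028828 counts. Otub1, the target of the knockdown, stood at 76.2, 73.9 and 69.8 CPM (library counts scaled to a common total) in NC and 58.6, 49.3 and 71.2 CPM in OTUB1_KD, so the ranges overlapped, and the difference of -0.36 ± 0.18 (log2, SE) did not pass the test (adjusted p = 0.112, edgeR quasi-likelihood test, Benjamini-Hochberg). In TPM, a transcript share that corrects for length, Otub1 stood at 77.5 to 84.8 in NC and 44.1 to 67.1 in OTUB1_KD with no overlap, and limma on log2(TPM + 1) gave -0.55 (log2, adjusted p = 0.0255). Markers of lung and blood cells were nearly absent from NC and Blank, although both are labelled lung cancer tissue, and whether these libraries came from tumours or from cells in culture cannot be told from the labels. The summed level of 15 leukocyte markers was 7.91 to 8.97 CPM in NC and 3.62 to 4.75 CPM in Blank, with Cd3e, Cd3d and Adgre1 at 0 counts in both, against 3739 to 8988 CPM in OTUB1_KD and 5318 to 5998 CPM in SFD@M. The summed level of 12 alveolar and airway markers was 16.7 to 19.7 CPM in NC and 11.9 to 12.5 CPM in Blank, with Sftpd and Scgb3a2 at 0 counts in both, against 22940 to 55710 CPM in OTUB1_KD and 60590 to 63070 CPM in SFD@M. No label says that the libraries of a group come from separate animals, and each p-value therefore reflects library-to-library spread alone, which may be technical.

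Promoter sequences were searched because the results turn on genes that ATF4 is known to bind through the C/EBP-ATF response element. The core searched was TGATGNAA, on both strands and as the only motif, in RefSeq windows (GRCm38.p6) from 250 bases before to 50 bases after each gene start. All 9 genes had a window. At least 1 match was found in 2 of the 9, Asns and Trib3, against 1219 of the 27025 genes in the table (4.51%). Among further ATF4-linked genes, matches were found in 5 of 8 tRNA synthetases, 7 of 18 other target genes and 2 of 8 amino acid transporters. In the other lists, 2 of 12 genes of other amino acid metabolism and 1 of 15 of the stress response machinery had a match. No match was found in 20 one-carbon genes (0 of 20) or in tRNA synthetases not known as ATF4 targets (0 of 5). Both listed genes with a match and the 5 further genes with a match that are described in Blank against NC follow, 5′ to 3′ on the gene's strand, with the match in capitals. A match on the other strand appears as its reverse complement.
Asns promoter, the 250 bases before the start, chr6:7693210-7693459, minus strand: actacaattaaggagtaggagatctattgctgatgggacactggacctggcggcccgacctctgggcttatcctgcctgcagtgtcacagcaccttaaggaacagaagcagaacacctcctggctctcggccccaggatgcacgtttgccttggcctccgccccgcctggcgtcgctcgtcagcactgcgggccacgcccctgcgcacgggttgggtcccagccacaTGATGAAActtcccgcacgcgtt
Trib3, 30 bases just past the start, chr2:152344028-152344057, minus strand: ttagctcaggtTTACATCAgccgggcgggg
Chac1, 60 bases, chr2:119351023-119351082, plus strand: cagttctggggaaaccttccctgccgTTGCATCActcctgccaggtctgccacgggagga
Slc1a4, 30 bases, chr11:20332699-20332728, minus strand: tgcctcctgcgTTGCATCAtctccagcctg
Aars, 60 bases, chr8:111033704-111033763, plus strand: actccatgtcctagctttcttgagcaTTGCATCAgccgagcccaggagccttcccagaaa
Gars, 56 bases, chr6:55037945-55038000, plus strand: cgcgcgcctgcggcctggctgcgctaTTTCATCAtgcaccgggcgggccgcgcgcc
Got1, 60 bases, chr19:43524674-43524733, minus strand: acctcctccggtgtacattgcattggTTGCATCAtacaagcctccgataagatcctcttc
The match in Asns, which encodes asparagine synthetase, began 23 bases before the gene start. A match is a run of letters and not a measured binding site, and the windows of Atf4, Ddit3, Phgdh, Psat1, Psph, Shmt2 and Mthfd2 did not hold these letters.

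**Figure D1:**
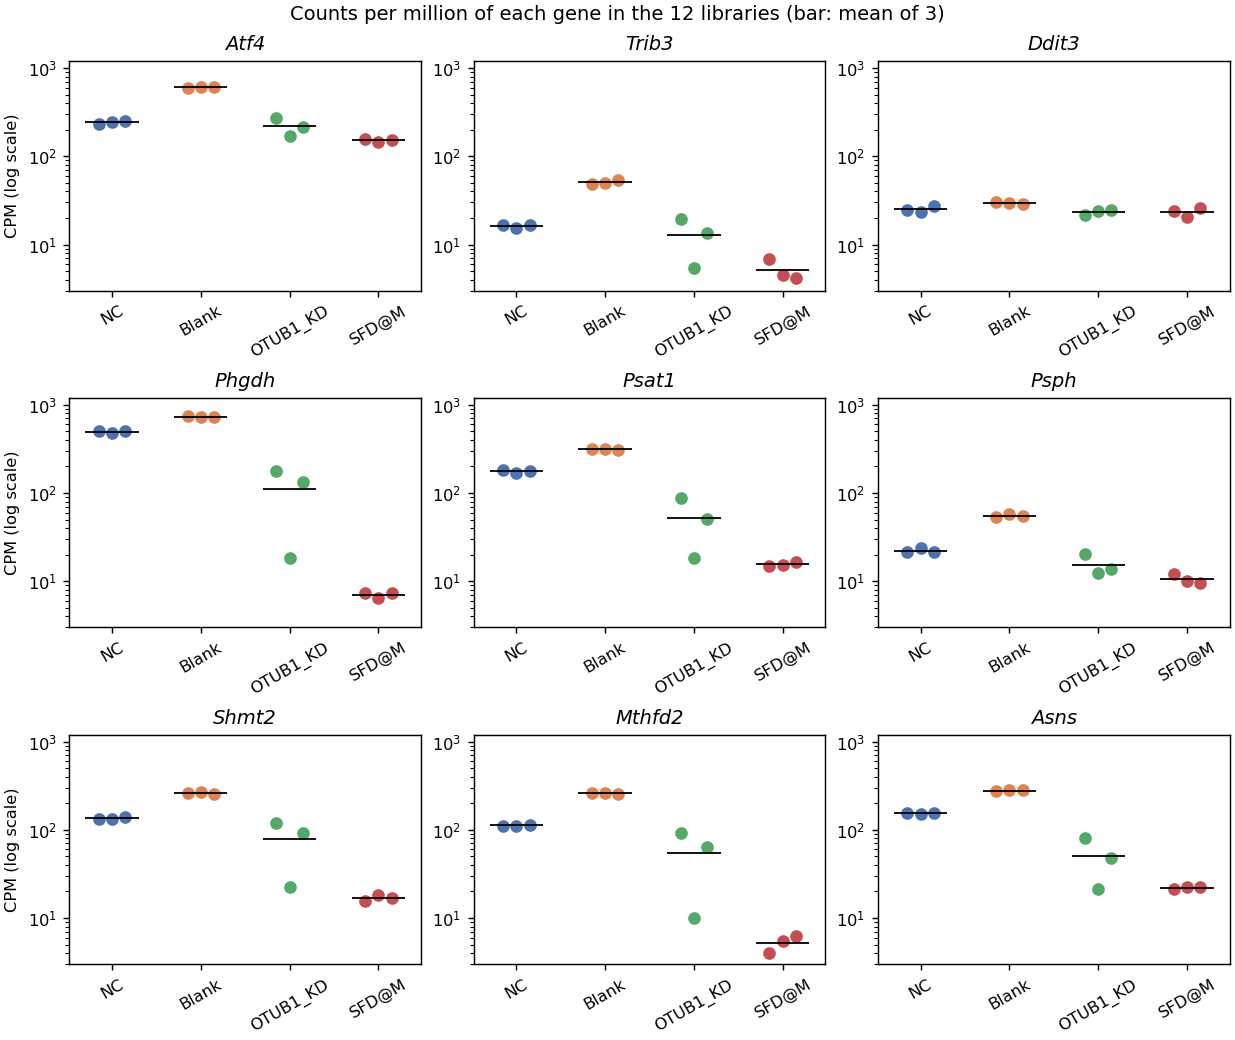
Level of the 9 genes in CPM (log scale) in each of the 12 libraries, by group, with a bar at the mean of the 3 libraries. Blank lies above NC for every gene, the SFD@M libraries lie close together, and OTUB1_KD replicate 2 is the lowest of its group for every gene but Ddit3.

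Blank against NC set the saline samples beside the control-virus samples, a pair that the 2 experiments of the study do not compare directly. All 9 genes were higher in Blank, and for none of them did the libraries of the groups overlap. The median difference was 0.95 (log2), against -0.0003 for all 12087 genes tested. All 9 counted as called higher, where 37% of all genes were called higher, 37.2% lower and 74.3% in either direction, and where the libraries of 75.3% did not overlap. By size, 7 of the 9 were called at least 1.5-fold higher, against 6.87% of all genes, and 4 of the 9 at least 2-fold higher, against 1.45%. These genes were listed with this contrast known, so nothing is read from those shares. The experiment, the treatment and possibly the virus differ between Blank and NC and cannot be told apart.

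Among the regulators, Atf4, the transcription factor at the centre of the pathway, stood at 233.5, 245.8 and 248.1 CPM in NC and 593.0, 613.7 and 612.6 CPM in Blank. Every Blank library lay far above every NC library, and the fitted difference was 1.32 ± 0.03 (log2, SE). Trib3, a pseudokinase that ATF4 induces and that in turn restrains it, went from 16.4, 15.4 and 16.8 CPM in NC to 48.7, 49.8 and 53.8 CPM in Blank, a difference of 1.64 ± 0.06. It had the largest difference of the 9 genes. Ddit3, which encodes the stress factor CHOP and is linked to cell death under lasting stress, differed least, with 24.4, 23.6 and 27.4 CPM in NC and 30.6, 29.3 and 28.7 CPM in Blank. A narrow gap separated its groups, and the difference was 0.23 ± 0.06.

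The serine enzymes were all higher in Blank, with the last step differing most. Phgdh, which diverts 3-phosphoglycerate from glycolysis and opens the pathway, stood at 508.1, 484.9 and 500.9 CPM in NC and 742.9, 729.7 and 726.5 CPM in Blank (0.56 ± 0.02, log2). Psat1, the aminotransferase of the second step, stood at 180.9, 170.5 and 178.5 CPM in NC and 314.4, 314.0 and 309.1 CPM in Blank (0.82 ± 0.03). Psph, the phosphatase that releases serine, stood at 21.4, 23.7 and 21.6 CPM in NC and 53.6, 58.0 and 54.98 CPM in Blank (1.32 ± 0.05). The order of the differences thus ran with the order of the steps, Phgdh below Psat1 below Psph, each apart from the next by more than their SEs.

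Both mitochondrial folate enzymes and asparagine synthetase were higher as well. Shmt2, which splits serine into glycine and a one-carbon unit, stood at 132.2, 131.7 and 138.9 CPM in NC and 260.8, 264.6 and 252.6 CPM in Blank (0.95 ± 0.03). Mthfd2, which oxidises that unit further in mitochondria, stood at 110.6, 111.7 and 113.2 CPM in NC and 262.5, 261.6 and 254.3 CPM in Blank (1.21 ± 0.03). Asns, which makes asparagine from aspartate and glutamine, stood at 155.5, 151.9 and 154.1 CPM in NC and 271.6, 280.6 and 278.7 CPM in Blank (0.85 ± 0.03). Within each group the 3 libraries of these genes lay close together, and the groups lay far apart. Beside them, the summed leukocyte, airway and endothelial markers were all lower in Blank than in NC. The summed fibroblast markers stood at 2266 to 2373 CPM in NC and 2751 to 2831 CPM in Blank. Their sum and their single genes differed, since 2 of the 7 were called higher and 4 lower, with a median of -0.91 (log2). Over all genes 37% were called higher and 37.2% lower. Markers of dividing cells stood at 2817 to 2910 CPM in NC and 3059 to 3138 CPM in Blank. The part of all these markers in the differences was not tested. In 1 fit over all 12 libraries, whose shared spread takes in the more variable groups, the differences of the 9 genes lay between 0.18 and 1.59 but only Atf4, Trib3 and Psph were called, where 17.6% of all genes were called in either direction, and 9 of the further genes named for this comparison were no longer called.

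**Figure D2:**
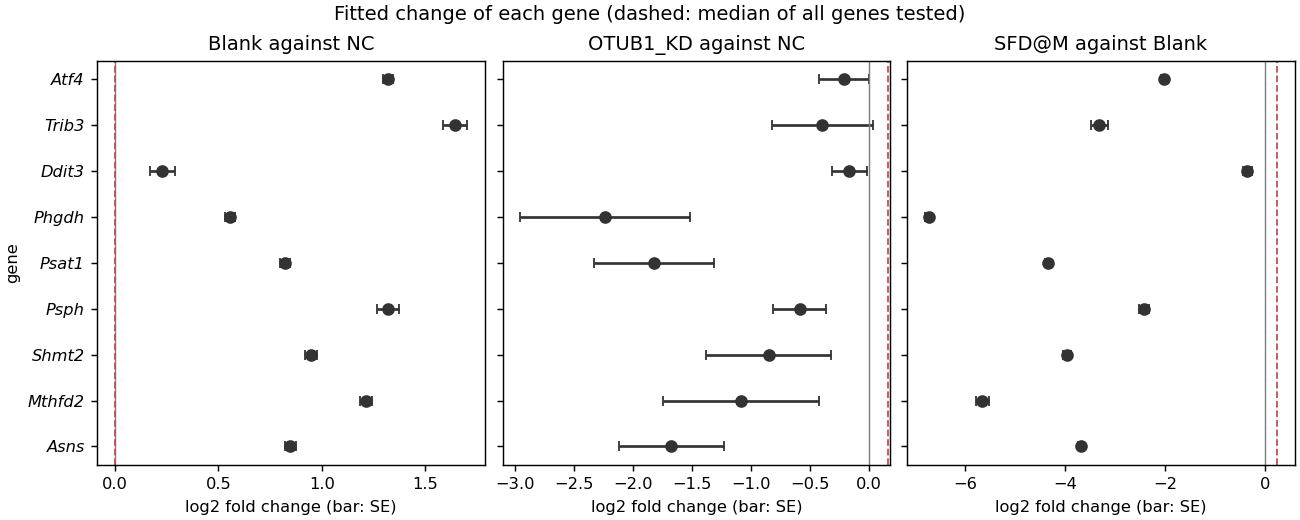
Fitted log2 difference of each gene with its SE in 3 comparisons of 3 against 3 libraries, with a dashed line at the median of all genes tested and a separate scale for each panel. In Blank against NC all points lie right of 0 with narrow bars, in OTUB1_KD against NC the bars are wide, and in SFD@M against Blank all points lie left of 0, from -0.37 for Ddit3 to -6.74 for Phgdh.

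Other genes of the pathway, 118 in 7 lists, were examined in the same comparison. Of the 111 tested, 72 rose and 15 fell (edgeR, adjusted p below 0.05), with a median difference of 0.26 (log2), beside 37% of all genes called higher and 37.2% lower. No list was tested against the rest of the genes. The counts also include genes that passed the filter on low counts only through the group where they are high. Amino acid transporters had 10 higher and 0 lower of 11 tested, tRNA synthetases known as ATF4 targets 12 higher and 1 lower of 13, and other known targets 13 higher and 2 lower of 20. The stress response machinery (kinases, subunits of eIF2 and of its exchange factor eIF2B, phosphatase subunits and regulators) had 13 higher and 2 lower of 19. One-carbon genes had 12 higher and 3 lower of 22, tRNA synthetases not linked to ATF4 5 higher and 1 lower of 7, and other amino acid metabolism 7 higher and 6 lower of 19. Some of these lists were drawn up with earlier results known, so the counts describe these libraries.

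Among transporters, Slc6a9, which carries glycine, rose by 1.45 ± 0.05 (log2, SE; adjusted p = 5.33e-41, edgeR), from 24.4 ± 0.77 to 66.8 ± 1.7 CPM (SD, n = 3). Slc1a4, a carrier of serine and alanine, rose by 1.19 ± 0.04 (adjusted p = 2.81e-38), and Slc7a5, the light chain of the large neutral amino acid exchanger, by 0.83 ± 0.03 (adjusted p = 1.42e-43). Of the tRNA synthetases, Aars for alanine rose by 1.04 ± 0.03, Nars for asparagine by 0.74 ± 0.03 and Gars for glycine by 0.68 ± 0.03 (adjusted p = 2.84e-48, 5.24e-40 and 8.75e-37). Sars, the serine enzyme, was the member of its list that went the other way, from 310.2 ± 4.5 to 286.0 ± 8.6 CPM (adjusted p = 2.13e-05), and was picked out after its values were seen. Farsa and Rars, for phenylalanine and arginine, rose by 0.74 ± 0.04 and 0.42 ± 0.03, and Qars, for glutamine, fell by 0.41 ± 0.03 (adjusted p = 2.39e-25, 2.1e-22 and 1.38e-22).

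Some further targets differed more than any of the listed enzymes. Atf5, a transcription factor related to ATF4, rose by 1.94 ± 0.07 (log2, SE; adjusted p = 1.37e-38, edgeR), from 9.35 ± 0.48 to 35.9 ± 1.9 CPM (SD, n = 3), and Bcat1, which transaminates branched-chain amino acids in the cytosol, by 1.37 ± 0.04 (adjusted p = 1.92e-47). Chac1, which degrades glutathione, rose by 2.30 ± 0.11, from 3.43 ± 0.12 to 17.0 ± 1.3 CPM. Cth, which makes cysteine, rose by 1.74 ± 0.10, Sesn2, a leucine sensor of the mTORC1 pathway, by 1.21 ± 0.06 and Xpot, the tRNA export receptor, by 0.64 ± 0.03 (adjusted p = 7.08e-32, 1.87e-26, 3.11e-31 and 2.82e-36 for these 4, which were picked out after their values were seen). Ndrg1, best known as a gene induced by low oxygen, fell by 1.51 ± 0.03 (adjusted p = 3.25e-52), from 205.7 ± 8.5 to 72.5 ± 2.7 CPM.

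The stress response machinery had a median difference of 0.17 (log2). The eIF2B subunits Eif2b1 and Eif2b5, parts of the exchange factor that phosphorylated eIF2 blocks, rose by 0.66 ± 0.05 and 0.53 ± 0.04 (log2, SE), and Eif2ak1, the haem-regulated kinase, by 0.56 ± 0.04 (adjusted p = 3.85e-22, 2.89e-21 and 1.04e-19, edgeR). Eif2ak3, which encodes the endoplasmic reticulum kinase PERK, and Eif2ak4, which encodes the amino acid sensor GCN2, were the 2 of that list that fell, by 0.11 ± 0.03 and 0.23 ± 0.05 (adjusted p = 0.00392 and 4.42e-06). In a separate list of 20 endoplasmic reticulum chaperones and unfolded protein response genes, 10 rose and 6 fell, beside 37% and 37.2% of all genes. Herpud1, a part of the degradation machinery of that compartment, rose by 1.04 ± 0.05, Hspa5, its main chaperone, rose by 0.54 ± 0.02, and Atf6, one of its stress sensors, fell by 0.73 ± 0.03 (adjusted p = 2.74e-32, 1.23e-34 and 5.3e-38).

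One-carbon and amino acid enzymes outside the ATF4 lists were mixed. Tyms, thymidylate synthase, rose by 0.97 ± 0.04, Mthfd1, the cytosolic counterpart of the mitochondrial folate enzymes, by 0.62 ± 0.03, and Dld, a subunit of the glycine cleavage system, by 0.34 ± 0.02 (log2, SE; adjusted p = 7.41e-33, 1.31e-34 and 1.18e-21, edgeR). Got1, the cytosolic aspartate aminotransferase, rose by 0.36 ± 0.04 (adjusted p = 7.28e-12). Glul, glutamine synthetase, fell by 0.57 ± 0.04, from 106.7 ± 2.3 to 71.98 ± 2.7 CPM (adjusted p = 1.48e-24). Aspg, an asparaginase, stood at 2.70 ± 0.51 CPM in NC and 0.349 ± 0.21 CPM in Blank, and since it passed the filter through NC alone no test is given.

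**Figure D3:**
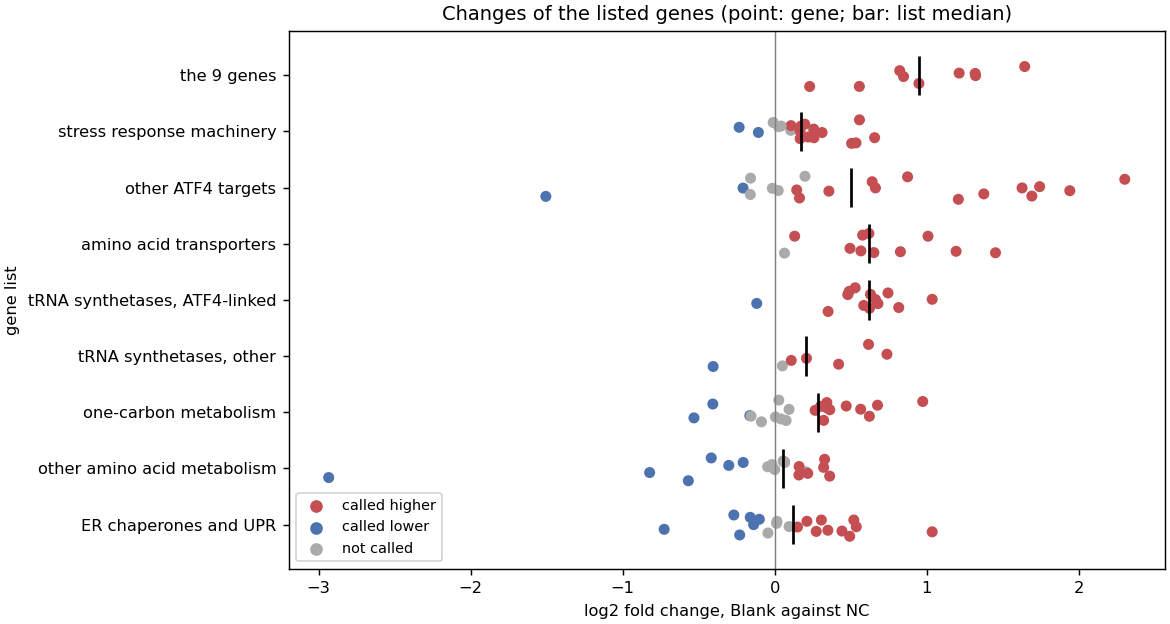
Log2 difference of each tested gene in Blank against NC, by gene list, coloured by whether it was called higher, called lower or not called, with a bar at each list's median. The transporters and the ATF4-linked tRNA synthetases lie almost wholly right of 0, with medians of 0.62 for both, while the other amino acid metabolism genes spread to both sides around a median of 0.05.

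When the genes of the 7 lists that had a promoter window were split by this comparison, TGATGNAA matched in 14 of 51 that were called higher (27.5%) and in 3 of 35 that were not (8.57%). The share in the lists as a whole was 17 of 86. The lists hold known ATF4 targets by choice, and the split was not tested.

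OTUB1_KD against NC is the comparison of the knockdown with its control virus. The 9 genes were spread widely in OTUB1_KD. In 6 of them, namely Phgdh, Psat1, Psph, Shmt2, Mthfd2 and Asns, every OTUB1_KD library was below every NC library. Over all genes the libraries of 78.2% did not overlap, a share that counts both directions. Phgdh, Psat1 and Asns, 3 of the 9, were called lower, where 25.8% of all 14785 genes were called lower, 39.9% higher and 65.7% in either direction, and nothing is read from that share. Their median difference was -0.85 (log2), against 0.16 for all genes.

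In CPM the libraries of the 3 regulators overlapped between the groups. Atf4 stood at 273.6, 168.6 and 213.8 CPM in OTUB1_KD, around the 233.5 to 248.1 CPM of NC, a difference of -0.21 ± 0.21 (log2, SE). Trib3 stood at 19.7, 5.43 and 13.4 CPM against 15.4 to 16.8 CPM in NC, a difference of -0.40 ± 0.43. Ddit3 stood at 21.8, 23.7 and 24.9 CPM against 23.6 to 27.4 CPM, a difference of -0.17 ± 0.15. On this scale each of the 3 differences was no larger than about its own SE. In TPM the libraries of Atf4 and Trib3 also overlapped, but Ddit3 stood at 39.7 to 43.5 in OTUB1_KD and 53.9 to 65.1 in NC with no overlap, and limma on log2(TPM + 1) put it at -0.47 and called it lower.

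The enzymes were lower, to a degree that differed between the 3 libraries. Phgdh stood at 178.5, 18.3 and 133.4 CPM, which is 35.8%, 3.67% and 26.8% of the NC mean, with a fitted difference of -2.24 ± 0.72 (log2, SE). Psat1 stood at 87.3, 18.3 and 50.9 CPM, or 49.4%, 10.3% and 28.8% of NC (-1.82 ± 0.51), and Psph at 20.3, 12.2 and 13.9 CPM, or 91.3%, 55.1% and 62.4% (-0.59 ± 0.22). OTUB1_KD replicate 2 was the lowest and replicate 1 the highest for each of these steps. Shmt2 stood at 118.1, 22.7 and 91.8 CPM, or 87.9%, 16.9% and 68.4% of NC (-0.85 ± 0.53), and Mthfd2 at 91.1, 10.1 and 63.4 CPM, or 81.5%, 9.00% and 56.7% (-1.09 ± 0.66). Asns stood at 81.6, 21.2 and 47.9 CPM, or 53.1%, 13.8% and 31.1% of NC (-1.68 ± 0.44). In all 6 enzymes the libraries kept the same order, replicate 1 above replicate 3 above replicate 2.

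The summed Y-linked and dividing-cell genes had the same order of libraries. Y-linked genes, which NC expressed at 340.5 to 348.3 CPM in sum, stood at 36.9%, 0.184% and 7.08% of the NC mean in OTUB1_KD replicates 1, 2 and 3. Markers of dividing cells stood at 32.9%, 7.01% and 12.5%. Lung and airway markers ran the opposite way, at 22940, 55710 and 45140 CPM, and their part in the lower enzyme levels was not tested. In bulk RNA, fewer cells of a type and less RNA per cell cannot be told apart. Without replicate 2 the differences were -1.74 for Phgdh, -1.42 for Psat1, -1.32 for Asns, -0.60 for Mthfd2, -0.42 for Shmt2 and -0.45 for Psph (log2), and their median over the 9 genes moved from -0.85 to -0.45. Without OTUB1_KD replicate 3 none of the 9 was called, where 25.1% of all genes were called lower, and without replicate 1 the number was 5, where 31.5% were. Phgdh also lost its call without any single NC library, at -2.24 to -2.27.

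**Figure D4:**
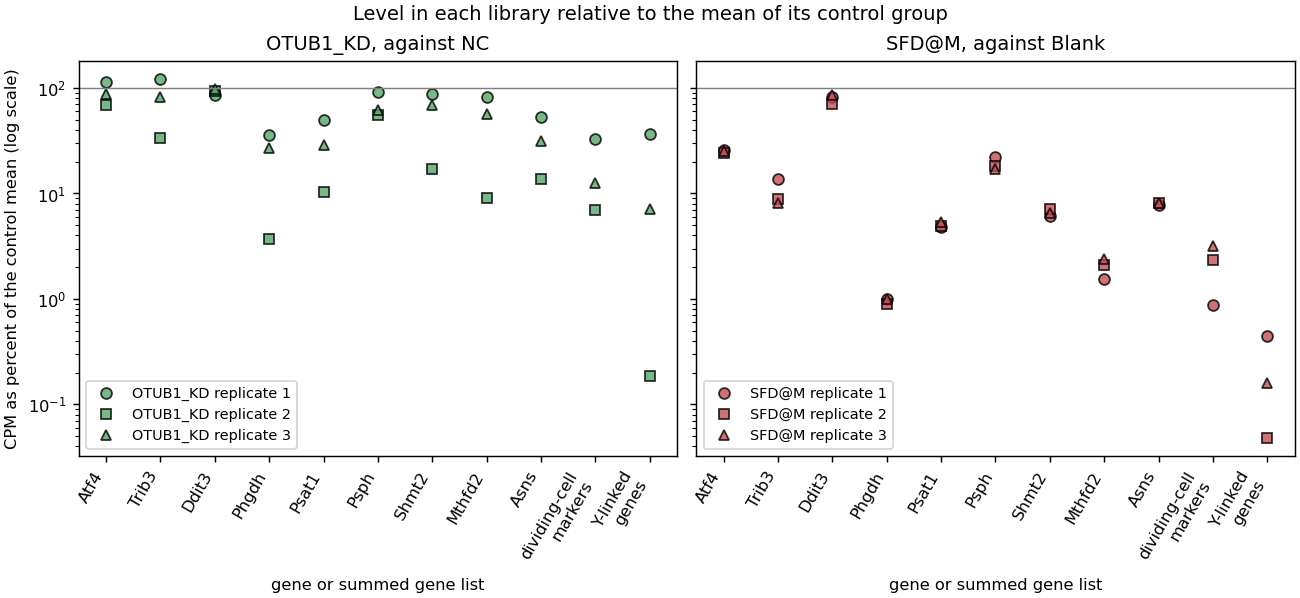
Level of each gene, and of the summed dividing-cell markers and Y-linked genes, in every OTUB1_KD and SFD@M library as percent of the mean CPM of its control group (log scale, grey line at 100%). OTUB1_KD replicate 2 lies at 3.67% of NC for Phgdh and 0.184% for Y-linked genes, while the other OTUB1_KD libraries lie higher. The SFD@M libraries lie at 0.891% to 0.996% of Blank for Phgdh and 0.0475% to 0.442% for Y-linked genes. The controls of the panels differ, and Blank is above NC for every one of the 9 genes.

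The wider lists were lower more often than higher in OTUB1_KD. Of 116 tested, 24 rose and 50 fell (edgeR), with a median of -0.55 (log2), beside 39.9% of all genes called higher and 25.8% lower. These counts include genes that passed the filter on low counts only through the group where they are high, and nothing is read from them. tRNA synthetases known as ATF4 targets had 1 higher and 9 lower of 13, the other synthetases 0 higher and 5 lower of 7, one-carbon genes 5 higher and 12 lower of 24, and the stress response machinery 4 higher and 9 lower of 19. Transporters had 3 in each direction of 12, other ATF4 targets 5 higher and 6 lower of 22, and other amino acid metabolism 6 in each direction of 19. Without NC replicate 1 the calls over the lists dropped from 74 to 48, and those over all genes from 9721 to 8000.

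Genes that rose were spread over several lists. Slc1a5, the glutamine carrier, rose from 73.5 ± 2.8 to 204.5 ± 31 CPM (SD, n = 3; adjusted p = 0.000408, edgeR). For 3 genes the filter on low counts was passed through OTUB1_KD alone, so that only levels are given. Aldh1l1, a cytosolic folate dehydrogenase, stood at 0.440 ± 0.14 CPM in NC and 25.6 ± 9.2 CPM in OTUB1_KD, and Slc43a1, a neutral amino acid carrier, at 0.122 ± 0.064 and 5.28 ± 1.1 CPM. Vldlr, a lipoprotein receptor listed among ATF4 targets, had 0 counts in every NC library and 48.8 ± 19 CPM in OTUB1_KD, at least 807-fold higher when NC is set to a floor of 3 counts over the group. Atf5 rose by 2.18 ± 0.25 and Nupr1, a small stress-induced chromatin protein, by 1.65 ± 0.17 (log2, SE; adjusted p = 0.000381 and 0.000206). Ppp1r15a, the phosphatase subunit GADD34 that ends the response, rose by 1.37 ± 0.21 (adjusted p = 0.00144), and Wars, for tryptophan, by 1.18 ± 0.17 (adjusted p = 0.000907).

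Glul, Gpt and Ass1, which make glutamine, alanine and argininosuccinate, rose by 1.57 ± 0.17, 3.21 ± 0.45 and 1.78 ± 0.18 (log2, SE; adjusted p = 0.00025, 0.000906 and 0.000214, edgeR). Sfxn3, a mitochondrial carrier, rose by 1.46 ± 0.17 (adjusted p = 0.000446). Of the endoplasmic reticulum list, 5 of 20 rose and 8 fell, beside 39.9% and 25.8% of all genes. Herpud1 and Xbp1, a transcription factor of the unfolded protein response, were higher by 1.85 ± 0.18 and 1.39 ± 0.16 (adjusted p = 0.000177 and 0.000398, edgeR) and Atf6 was lower at -1.51 ± 0.16 (adjusted p = 0.000252).

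Genes that fell included the kinases PERK and GCN2. Eif2ak3 went from 94.4 ± 2.1 to 47.2 ± 7.1 CPM and Eif2ak4 from 52.6 ± 0.46 to 27.5 ± 5.3 CPM (SD, n = 3; adjusted p = 0.000892 and 0.00203, edgeR). Slc7a1, the carrier of cationic amino acids, fell by 1.88 ± 0.41 (log2, SE; adjusted p = 0.00631). Among synthetases, Sars fell by 1.31 ± 0.19 and Yars, for tyrosine, by 1.01 ± 0.24 (adjusted p = 0.0011 and 0.00882). Qars, Farsb and Kars, for glutamine, phenylalanine and lysine, fell by 0.89 ± 0.18, 0.85 ± 0.19 and 1.05 ± 0.28 (adjusted p = 0.00486, 0.0073 and 0.0139).

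SFD@M against Blank is the comparison of the treatment with saline. All 9 genes were lower in SFD@M, with no overlap between the groups, and the 3 SFD@M libraries lay close together. All 9 counted as called lower, where 38.7% of all 14824 genes were called lower, 49.5% higher and 88.1% in either direction, and where 90.2% of genes had libraries that did not overlap. Of the 9, 8 were called at least 2-fold lower, against 20.5% of all genes, and 6 at least 8-fold lower, against 4.24%. The genes were listed with this contrast known, and nothing is read from those shares.

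Atf4 stood at 158.2, 146.9 and 154.0 CPM in SFD@M, about 25.2% of the Blank mean of 606.5 CPM (-2.02 ± 0.06, log2, SE). Trib3 stood at 6.93, 4.53 and 4.12 CPM, or 10.2% of Blank (-3.32 ± 0.17). Ddit3 stood at 24.2, 20.8 and 25.6 CPM, or 79.7% of Blank (-0.37 ± 0.09). In CPM the level of Ddit3 in SFD@M overlapped that in OTUB1_KD and in NC, and of the 9 genes it differed least between the groups.

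Phgdh had the lowest remaining share, with 7.28, 6.53 and 7.30 CPM in SFD@M, or 0.960% of the Blank mean of 733.0 CPM (-6.74 ± 0.07, log2, SE). Psat1 stood at 14.97, 15.3 and 16.7 CPM, or 5.01% of Blank (-4.35 ± 0.06), and Psph at 12.2, 10.1 and 9.48 CPM, or 19.1% (-2.43 ± 0.10). Of the 3 serine steps, the first thus differed most and the last least, the reverse of Blank against NC. Both comparisons use the Blank libraries and are not independent. Shmt2 stood at 15.7, 18.4 and 16.8 CPM, or 6.55% of Blank (-3.97 ± 0.07), Mthfd2 at 4.05, 5.41 and 6.24 CPM, or 2.02% (-5.67 ± 0.13), and Asns at 21.3, 22.4 and 22.4 CPM, or 7.96% (-3.69 ± 0.05).

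Beside these values, the Y-linked genes stood at 0.442%, 0.0475% and 0.158% of the Blank mean in the 3 SFD@M libraries and the dividing-cell markers at 0.878%, 2.36% and 3.14%, while the airway markers stood at 11.9 to 12.5 CPM in Blank and 60590 to 63070 CPM in SFD@M. Red cell markers, at most 0.407 CPM in Blank, stood at 219.3, 10.9 and 9.78 CPM. The part of this shift in the lower levels was not tested.

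Of 117 wider genes tested, 31 rose and 81 fell in SFD@M (edgeR), with a median of -1.25 (log2) against 0.23 for all genes, of which 49.5% were called higher and 38.7% lower. Here too the counts include genes that passed the filter on low counts only through the group where they are high, and nothing is read from them. Every list was lower more often than higher: transporters 9 of 12, ATF4-linked synthetases 12 of 13, the other synthetases 7 of 7, other targets 13 of 22, one-carbon genes 17 of 25, stress response machinery 13 of 19, and other amino acid metabolism 10 of 19 were called lower. Bcat1, which passed the filter through Blank alone and is given without a test, stood at 131.4 ± 4.1 CPM in Blank and 0.431 ± 0.32 CPM in SFD@M (SD, n = 3). Aldh1l2, the mitochondrial folate dehydrogenase, fell from 65.2 ± 2.4 to 1.88 ± 0.62 CPM (adjusted p = 7.38e-08, edgeR). Slc7a5 fell from 323.5 ± 4.2 to 10.2 ± 2.9 CPM (adjusted p = 1.44e-07).

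Smaller falls were spread over tRNA charging and translation. Vars, Gars and Mars1, for valine, glycine and methionine, fell by 2.73 ± 0.06, 2.34 ± 0.06 and 1.92 ± 0.05 (log2, SE; adjusted p = 1.65e-08, 2.39e-08 and 3.28e-08, edgeR), and Kars, Dars and Farsa, for lysine, aspartate and phenylalanine, by 1.88 ± 0.05, 1.64 ± 0.05 and 1.63 ± 0.06 (adjusted p = 3.48e-08, 5.35e-08 and 1.32e-07). Eif2s1, the eIF2 subunit that is phosphorylated, fell by 2.75 ± 0.12, Eif2s2, the beta subunit, by 1.84 ± 0.06 and Ppp1r15b, the constitutive phosphatase subunit, by 1.18 ± 0.05 (adjusted p = 3.22e-07, 6.6e-08 and 1.63e-07). Slc7a1 and Slc38a2, carriers of cationic and of small neutral amino acids, fell by 3.27 ± 0.06 and 1.63 ± 0.06, and Xpot by 1.83 ± 0.07 (adjusted p = 6.99e-09, 1.06e-07 and 1.1e-07). Gart and Tyms, of purine and thymidylate synthesis, fell by 2.36 ± 0.05 and 2.79 ± 0.06 (adjusted p = 1.33e-08 and 1.93e-08).

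Among the genes that rose, Glul went from 71.98 ± 2.7 to 719.1 ± 69 CPM and Gpt from 2.71 ± 0.14 to 27.5 ± 0.40 CPM (SD, n = 3; adjusted p = 3.34e-08 and 4.7e-08, edgeR). In the endoplasmic reticulum list 4 of 20 rose and 12 fell, beside 49.5% and 38.7% of all genes. Pdia6, a disulfide isomerase, fell from 1762 ± 19 to 247.5 ± 75 CPM, whereas Herpud1 and Dnajc3, a co-chaperone, rose by 1.57 ± 0.07 and 1.58 ± 0.08 (log2, SE; adjusted p = 8.64e-06, 3.29e-07 and 8.39e-07).

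SFD@M against OTUB1_KD set the 2 lung-marker-rich groups side by side. None of the 9 genes was called in either direction, where 2 of all 14914 genes were (0.0134%), while 6 of the 9 had an unadjusted p below 0.05 against 19.9% of all genes. DESeq2 called 4 of the 9 lower, where it called 897 genes lower (6.02% of all genes). Differences were -3.98 ± 0.75 for Phgdh, -3.40 ± 0.72 for Mthfd2, -2.20 ± 0.54 for Shmt2, -1.74 ± 0.50 for Psat1, -1.31 ± 0.48 for Trib3, -1.19 ± 0.44 for Asns, -0.54 ± 0.27 for Psph, -0.51 ± 0.22 for Atf4 and 0.01 ± 0.19 for Ddit3 (log2, SE). For 6 of the 9 the libraries did not overlap, against 28.7% of all genes. OTUB1_KD replicate 2 was nearer to every SFD@M library than to any other of its own group for Atf4, Trib3, Phgdh, Psat1, Shmt2, Mthfd2 and Asns. For instance, Psat1 stood at 18.3 CPM, beside 14.97 to 16.7 CPM in SFD@M and 87.3 and 50.9 CPM in the other OTUB1_KD libraries. Psph in replicate 2, at 12.25 CPM, was nearest to SFD@M replicate 1 at 12.21 CPM. The other SFD@M libraries stood at 10.1 and 9.48 CPM, and OTUB1_KD replicates 1 and 3 at 20.3 and 13.9 CPM. Without OTUB1_KD replicate 2, 6 of the 9 were called lower, namely Phgdh, Mthfd2, Shmt2, Psat1, Trib3 and Asns, where 1331 genes were called lower (8.8% of all genes), and nothing is read from these shares. None of 115 wider genes was called, and 34 had an unadjusted p below 0.05, against 19.9% of all genes. DESeq2 called 14 of them, 2 higher and 12 lower, where it called 475 of 14907 genes higher and 897 lower. Without OTUB1_KD replicate 2 the fit called 33, 4 higher and 29 lower. Of all 15133 genes it called 1875, 544 higher and 1331 lower.

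The 9 genes could be ranked by TPM. In NC the order was Phgdh at 484.6 ± 11, Atf4 at 280.2 ± 6.9, Psat1 at 144.0 ± 4.3, Asns at 141.6 ± 1.6, Shmt2 at 102.2 ± 2.9, Mthfd2 at 96.4 ± 1.0, Ddit3 at 58.6 ± 5.8, Psph at 29.7 ± 1.2 and Trib3 at 14.1 ± 0.58 TPM (SD, n = 3). Psat1 and Asns overlapped and the other neighbours did not. In Blank, Atf4 had drawn level with Phgdh, at 719.4 ± 17 and 733.1 ± 9.1 TPM with overlapping libraries, and Asns and Psat1 overlapped at 262.1 ± 4.3 and 262.0 ± 2.5 TPM.

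In SFD@M the order was recast. Atf4 stood first at 149.8 ± 2.5 TPM and Ddit3 second at 43.4 ± 2.9 TPM, followed by Asns at 16.9 ± 0.91, Psph at 10.8 ± 1.3, Shmt2 at 10.8 ± 1.2, Psat1 at 10.6 ± 0.65, Phgdh at 5.68 ± 0.20, Trib3 at 3.75 ± 1.0 and Mthfd2 at 3.67 ± 0.81 TPM (SD, n = 3). Psph, Shmt2 and Psat1 overlapped, as did Trib3 and Mthfd2. Phgdh had moved from the first place in NC, and a place level with Atf4 in Blank, to the seventh. Atf4 also stood first in every OTUB1_KD library, at 279.9, 160.9 and 194.6 TPM, where Phgdh stood at 152.4, 14.3 and 111.0 TPM. Ddit3 stood second in replicate 2, at 39.7 TPM, and Phgdh in replicates 1 and 3.

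Ratios within a library compare enzymes of mitochondria and cytosol at equal depth. Shmt2 over its cytosolic sister Shmt1 was 3.64, 3.55 and 3.79 in NC and 7.96, 7.89 and 6.75 in Blank (ratio of TPM), with no overlap. Shmt1 itself stood at 32.3 ± 0.34 CPM in NC and 30.4 ± 2.2 CPM in Blank, a difference of -0.09 ± 0.06 (log2, SE; adjusted p = 0.154, edgeR). The ratio was 7.45, 3.02 and 7.97 in OTUB1_KD, with replicate 2 apart from the others, and 2.65, 2.72 and 2.10 in SFD@M. The mitochondrial enzyme therefore exceeded the cytosolic one in every library.

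Mthfd2 over Mthfd1, the cytosolic enzyme with the same folate interconversions, was 1.19, 1.19 and 1.21 in NC and 1.80, 1.82 and 1.78 in Blank. It was 1.25, 0.202 and 0.828 in OTUB1_KD and 0.0700, 0.0955 and 0.142 in SFD@M, so that Mthfd1 exceeded Mthfd2 there in every library. Mthfd2 over its closely related mitochondrial sister Mthfd2l was 5.24, 5.28 and 5.14 in NC, 11.9, 12.3 and 11.2 in Blank, 8.96, 1.75 and 9.37 in OTUB1_KD and 0.955, 1.01 and 1.42 in SFD@M. Mthfd2l stood at 23.8 ± 0.77 CPM in NC and 24.5 ± 0.81 CPM in Blank (SD, n = 3), a difference of 0.04 ± 0.06 (log2, SE; adjusted p = 0.561, edgeR). Shmt1 and Mthfd2l thus lay near the same level in NC and Blank, where Shmt2 and Mthfd2 differed by 0.95 and 1.21 (log2).

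For Psph and Mthfd2, picked out after their values were seen, 1 transcript is followed by its share. Psph is annotated with several transcripts, whose shares are estimates by the counting software. The predicted transcript XM_030254012 took 63.2%, 37.6% and 46.6% of the TPM of Psph in NC, 87.5%, 82.7% and 82.2% in Blank, 72.6%, 18.9% and 39.6% in OTUB1_KD and 0%, 10.4% and 0% in SFD@M. The Blank shares lay above every other library, and the SFD@M shares below every other one. In TPM this transcript went from 14.5 ± 3.6 in NC to 68.4 ± 2.3 in Blank (SD, n = 3). The curated transcript NM_133900 stood at 13.6 ± 4.1 TPM in NC, 10.2 ± 3.0 in Blank, 6.72 ± 1.8 in OTUB1_KD and 8.25 ± 0.49 in SFD@M. The difference of Psph between NC and Blank was thus assigned to the predicted transcript, while the curated one stayed between 4.72 and 17.5 TPM in all 12 libraries.

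Mthfd2 was split the other way. The differences lay in its curated transcript NM_008638, with mean TPM of 95.0 in NC, 229.6 in Blank, 39.6 in OTUB1_KD and 2.35 in SFD@M. The predicted transcript XM_006505697 of Mthfd2 took 0.986% to 1.56% of the TPM in NC, 0% to 0.435% in Blank, 0.811%, 8.46% and 6.31% in OTUB1_KD and 32.9% to 39.1% in SFD@M. In TPM it stood at 1.24 ± 0.29 in NC, 0.540 ± 0.50 in Blank, 1.37 ± 1.4 in OTUB1_KD and 1.31 ± 0.25 in SFD@M (SD, n = 3), so its share was high in SFD@M where the rest of the gene was low. Other genes also had transcripts whose shares did not overlap between a pair of groups. For Atf4, NM_001287180 took 44.4% to 51.5% in SFD@M, 33.5% to 39.2% in Blank and 34.2% to 40.3% in NC, and was listed at 0% in OTUB1_KD replicate 3, which is an estimate and not a count. For Shmt2, NM_001252316 took 14.5% to 15.8% in Blank and 16.4% to 23.1% in NC, and for Ddit3, NM_001290183 took 9.53% to 12.7% in Blank and at most 8.72% in NC. Trib3 and Phgdh had 1 transcript each in the table.

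**Figure D5:**
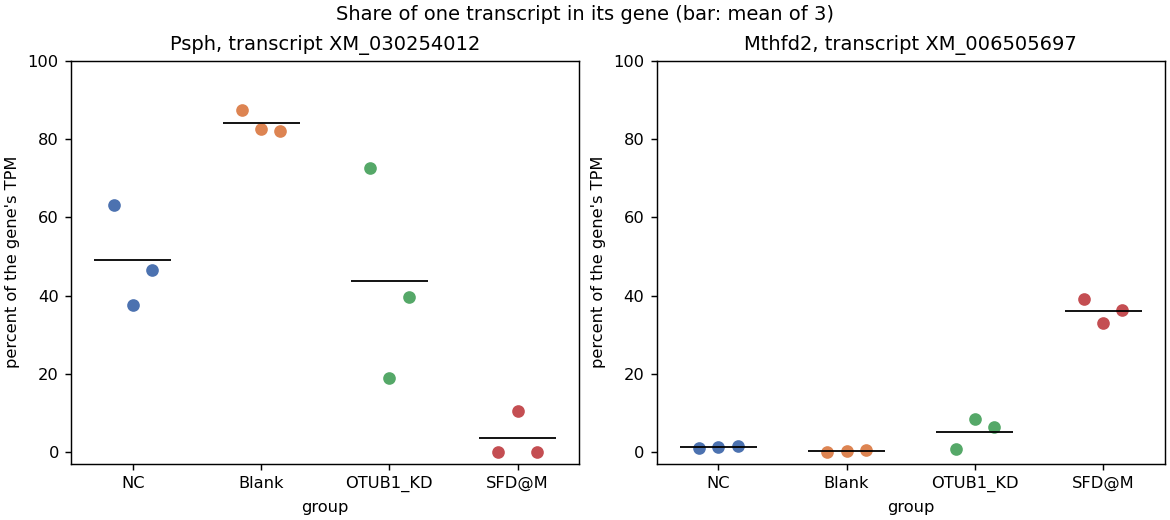
Share of 1 predicted transcript in the TPM of Psph and of Mthfd2, by library and group, with a bar at the mean of 3. The Psph transcript lies at 82.2% to 87.5% in Blank and at 0% to 10.4% in SFD@M, and the Mthfd2 transcript exceeds 30% only in SFD@M.

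Genes with the most similar profile were sought for each of the 9 over all 12 libraries, by the root mean square difference of centred log2 CPM among 10724 genes with a mean of at least 10 CPM. Nearest to Atf4 were Smg5 (0.165) and Aars (0.168), and nearest to Psph was Atf4 itself (0.211), followed by Hmgb3 (0.213). Psat1 was nearest to Polr1a (0.171) and Pola1 (0.237), Asns to Nol10 (0.169) and Nup205 (0.185), Shmt2 to Rcc1 (0.231) and Mcm2 (0.242), Phgdh to Exo1 (0.299) and Tenm4 (0.339), Mthfd2 to Cks1b (0.366) and Tk1 (0.378), and Trib3 to Tyms (0.335) and Gar1 (0.351). Ddit3, whose level varied least, was nearest to Zfyve19 (0.0868) and Bag5 (0.0928). Psph was thus the 1 listed gene whose nearest neighbour was another of the 9. The 12 libraries share the contrast between lung-marker-rich and lung-marker-poor groups, which enters every one of these distances.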

How the data were processed

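Messenger RNA from 12 mouse lung cancer samples was enriched with oligo(dT) beads and sequenced, per the labels' protocols. The authors deposited 1 table of 70659 transcripts with estimated read counts (expected counts), TPM, FPKM and normalized counts per library, per the file headers. Tools listed without roles in the submitters' processing notes are RSEM 1.3.1, Bowtie2 and DESeq2 1.4.5, with the build GRCm39. No source used here gives strand handling, which leaves antisense, overlapping and near-copy genes uncertain. The normalized counts (a scaled signal, as deposited) equal the expected counts rounded up and times a constant for each library, since division by that constant left whole reads in 100% of values (tolerance 0.001).

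Expected counts were summed by Entrez identifier and rounded. Of 19212 genes, 19155 matched a symbol in RefSeq, and the others held at most 0.342% of a library. Depth was 16062806 to 18028828 counts. Each comparison of 3 against 3 libraries was fitted alone in R 4.3.3 with edgeR 4.0.16 (filterByExpr, TMM, quasi-likelihood test, Benjamini-Hochberg adjusted p below 0.05). The 9 genes and the gene lists were chosen with earlier results of these data known. From each list the up to 3 called genes with the smallest p were named, with Otub1, Shmt1, Mthfd1 and Mthfd2l, and the 2 genes nearest in profile. A few genes that this rule takes are not reported here. CPM are scaled to the library total, and a gene at 0 was set to 3 counts per group for a ratio. That floor reflects counting error alone, because the reads carry no molecular identifiers. Promoters came from RefSeq windows of GRCm38.p6.

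Alternatives were other scalings and filters, DESeq2 1.42.0, limma 3.58.1 on log2 of TPM or FPKM plus 1 (or TPM plus 0.1), 1 fit over 12 libraries, a replicate block, leaving out each library and, added after the data were seen, the recovered whole reads, which called 9736, 13088, 9002 and 2 genes in OTUB1_KD against NC, SFD@M against Blank, Blank against NC and SFD@M against OTUB1_KD. The fits of OTUB1_KD against NC, SFD@M against Blank and Blank against NC were run on simulated data, and that of SFD@M against OTUB1_KD was not.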

Additional observations from a re-analysis of the deposited data

How the results depend on the processing

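For OTUB1_KD against NC, 3 of the 9 genes were called. The count was 5 with limma on log2(TPM + 1) and on log2(TPM + 0.1), where 10398 and 10425 of all 14785 genes were called. It was 0 to 5 when 1 library was left out (5 without OTUB1_KD replicate 1, 0 without OTUB1_KD replicate 3). In those fits calls in the wider lists ranged from 48 to 87 around 74, and calls over all genes from 7991 to 11141 around 9721. For Blank against NC, 1 fit over all 12 libraries, which takes its spread from the more variable groups too, called 2699 genes in place of 8977, 3 of the 9 in place of 9, 31 wider genes in place of 87, and put Mthfd2l at -0.0093. For SFD@M against OTUB1_KD, 2 genes were called. The count was 15 without a filter on low counts, 1372 with DESeq2, 12 and 8 with limma on TPM plus 1 and plus 0.1, 4 on FPKM plus 1 and 2863 in 1 fit over 12 libraries. In the last fit, over 15304 genes, 7 of the 9 and 34 wider genes were called, and with DESeq2, over 14907 genes, 4 and 14. Leaving out 1 library gave 0 to 1875 genes, 0 to 6 of the 9 and 0 to 33 wider genes there, each highest without OTUB1_KD replicate 2. The difference of Ddit3 in that comparison, 0.01, changed sign to -0.0143 with upper-quartile factors and ranged from -0.0468 to 0.0873 when 1 library was left out. The share of the predicted Psph transcript in Blank was 80.9% by expected counts in place of 84.1%. The causes were not tested except where the construction is named. With limma on log2(TPM + 1) the median of all genes moved from 0.16 to -0.02 in OTUB1_KD against NC and from 0.23 to -0.03 in SFD@M against Blank, with 52.1% and 49.1% of calls higher in place of 60.7% and 56.1%, and in the 12-library fit of Blank against NC 28.2% were higher in place of 49.9%.

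In Blank against NC and in SFD@M against Blank each of the 9 genes kept its direction in every alternative run. Replicate numbers are shared between groups, but same-numbered libraries did not deviate together (r from -0.26 to 0.10). Deviations from means of 3 libraries are too few to exclude a shared batch or handling. With the replicate block, 3, 9, 9 and 0 of the 9 genes were called in OTUB1_KD against NC, SFD@M against Blank, Blank against NC and SFD@M against OTUB1_KD. Over all genes the same fits called 9362 of 14785, 13010 of 14824, 8947 of 12087 and 7 of 14914, and the last called 1 gene of the wider lists. Not every library correlated best with its own number. With 3 libraries a group, low genes such as Aspg rest on few counts.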
